A study of Mus musculus with 8 samples.

Results

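The phase II conjugation enzymes were taken as every gene of 3 families in the deposited tables, the glutathione S-transferases (symbols starting Gst), the UDP-glycosyltransferases (Ugt) and the sulfotransferases (Sult). Membership followed the gene symbol alone, and each symbol was represented by its transcript row of highest summed count. This gave 60 genes of 20377, with 21 Gst, 21 Ugt and 18 Sult genes. RNA was sequenced from sorted duct cells of wild-type C57BL/6 mouse liver, from cells outside the hepatocyte fraction that carried the duct surface marker MIC1-1C3, lacked CD26 and were not blood cells. These cells were divided by surface ST14 (matriptase, a membrane serine protease) into ST14high and ST14low populations, with 4 libraries of each. All 8 libraries share strain, genotype, tissue and the duct cell gate, and no treatment was given. The series title calls the mice adult, and an exact age is not given in the sources used here. Nor do the labels say whether the 4 samples of a population came from separate animals, so every p-value rests on a spread between samples that may be technical alone.

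Phase II enzymes attach a polar group to a lipophilic compound, after which the conjugate can be carried out of the cell into bile or blood. Glutathione S-transferases add the tripeptide glutathione, UDP-glucuronosyltransferases add glucuronic acid from UDP-glucuronate, and sulfotransferases add sulfate from the donor PAPS. In liver these families are best known from hepatocytes, and duct epithelium is known to carry some of their members, among them pi class glutathione transferases.

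The Ugt1a genes lie in 1 locus in which each variable first exon is spliced to the same later exons, and this sets what their read counts can show. The last 36 bases of exon 1 (lower case) and the first 36 bases of exon 2 (capitals) are shown for 6 members, from GENCODE transcripts on GRCm38, chromosome 1, plus strand, where exon 2 starts at position 88215044 in each.
Ugt1a1: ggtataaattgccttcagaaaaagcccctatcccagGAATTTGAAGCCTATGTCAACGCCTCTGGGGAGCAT
Ugt1a2: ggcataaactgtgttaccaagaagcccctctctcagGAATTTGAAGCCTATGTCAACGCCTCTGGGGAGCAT
Ugt1a5: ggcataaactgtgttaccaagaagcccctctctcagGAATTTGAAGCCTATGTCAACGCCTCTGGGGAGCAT
Ugt1a7c: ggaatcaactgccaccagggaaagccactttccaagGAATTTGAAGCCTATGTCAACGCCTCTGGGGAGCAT
Ugt1a9: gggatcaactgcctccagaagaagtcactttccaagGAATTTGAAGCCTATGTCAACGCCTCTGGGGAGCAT
Ugt1a10: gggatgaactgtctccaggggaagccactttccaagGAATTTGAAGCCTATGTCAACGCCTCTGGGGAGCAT
All 36 exon 2 bases were identical in every pair of these 6 transcripts. On the exon 1 side Ugt1a2 and Ugt1a5 matched at 36 of 36 bases, Ugt1a7c and Ugt1a10 at 31, and Ugt1a7c and Ugt1a1 at 26. A read inside the capitals therefore fits all 6 of these transcripts at once. Reads that reach into exon 1 can tell them apart, except Ugt1a2 from Ugt1a5 within the bases shown.

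Library totals, over 1 transcript per gene, ran from 6398307 to 42769980 reads. St14 itself, the gene of the sort, had a mean of 305 ± 32.5 CPM (read counts scaled to library size; SD, n = 4) in ST14high and 330 ± 49.0 in ST14low, with overlapping values (log2 fold change -0.11, SE 0.15, edgeR adjusted p = 0.809). Genes that mark duct epithelium were high in every library, with 15 markers summing to 30996 to 52979.9 CPM in ST14high and 35037 to 52479 in ST14low. In many genes ST14high replicate 1 stood far from the rest, so the main results on the members are also given without it. Its summed CPM over 19 pancreatic acinar markers was 11691, against 1714 in ST14high replicate 2 and at most 131 in the others. Its sum over 20 mesothelial, fibroblast and stellate cell markers was 6776, against 2400 to 3820 in the others. In the other direction its sum over 30 hepatocyte markers was 6596, the lowest of the 8, against 11388 to 19530 elsewhere. Alb alone gave 3930 of these CPM, and single markers differed in their lowest library. Ahsg was lowest in ST14high replicate 1, at 303 CPM against 923 in ST14high replicate 3. Cyp2e1 and Cps1 were lowest in ST14high replicate 3, at 1.68 and 5.79 CPM against 21.2 and 24.6 in replicate 1. The part of these other cell types in the results below was not tested, and in bulk RNA fewer cells of a type and less RNA per cell cannot be told apart.

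Which conjugation enzymes do duct cells express? Levels were compared between genes as RPKM, read counts scaled to transcript length and library size, as deposited. Of the 60 members, 42 passed a filter on low counts, 18 of 21 Gst, 17 of 21 Ugt and 7 of 18 Sult. A further 7 had a few reads, and 11 had no read in any library, which over the 8 libraries allows a level of up to 0.0151 CPM (3 counts, counting error only). Those 11 were 9 sulfotransferases, namely Sult1c1, Sult1e1, Sult3a1 and Sult2a1 to Sult2a6, and the olfactory genes Ugt2a1 and Ugt2a2. Sult1e1 sulfates estrogens and the Sult2a enzymes sulfate bile acids and hydroxysteroids. Sult2a2 and Sult2a1 share sequence, with 62.1% and 33.2% of their 50-base stretches found in another transcript, and Ugt2a1 and Ugt2a2 share 97.0% and 94.5%, so a count of 0 in these rows can also depend on how reads with several matches were treated, which the sources used here do not give.

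**Figure D1:**
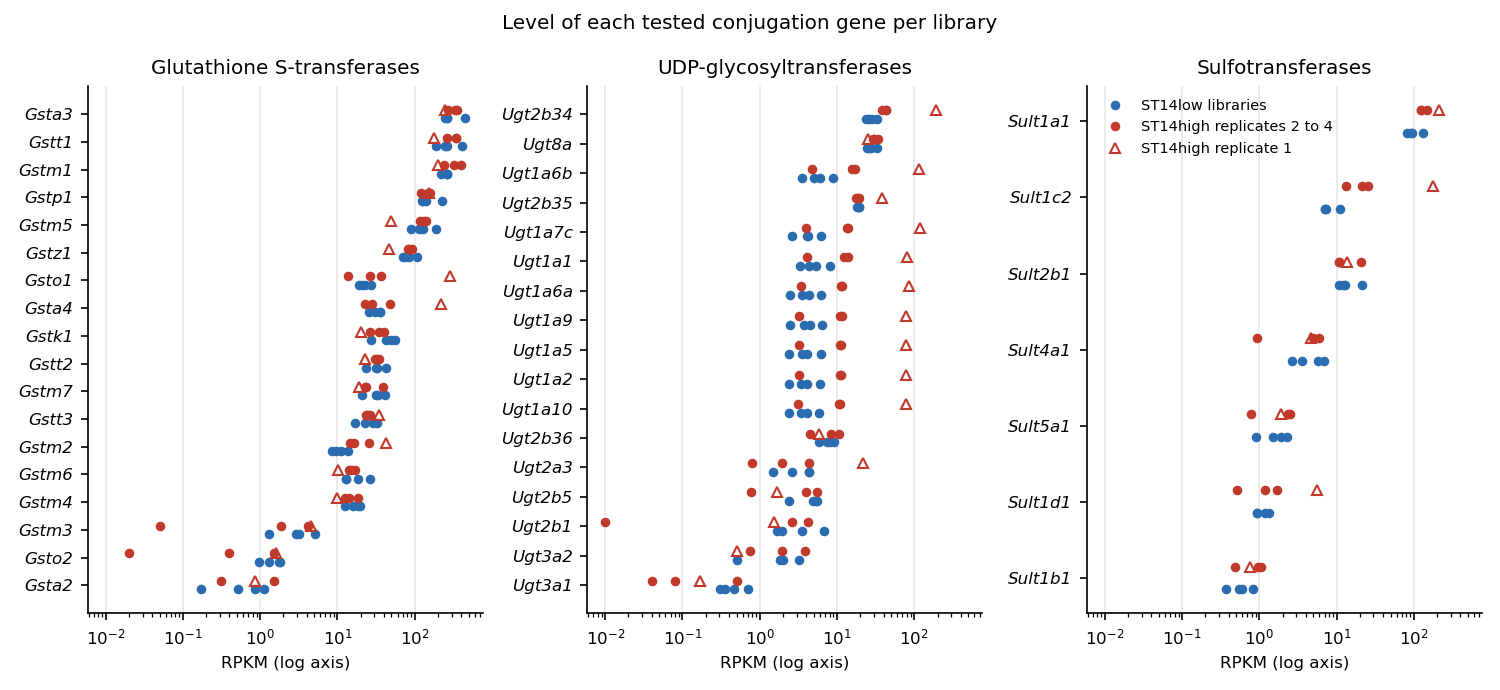
Deposited RPKM on a log axis for each of the 42 tested members, 1 point per library and values of 0 not drawn. Blue points are ST14low, red points ST14high replicates 2 to 4 and open triangles ST14high replicate 1, which lies to the right of all other libraries for the Ugt1a genes, Ugt2b34, Sult1c2, Gsto1 and Gsta4.

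The glutathione transferases were the most abundant of the 3 families per transcript length. Gsta3, an alpha class enzyme, had 301 ± 50.3 RPKM in ST14high and 303 ± 95.7 in ST14low (SD, n = 4 each). Gstt1, of the theta class, had 280.1 ± 78.3 and 276 ± 94.4 RPKM, and Gstm1, of the mu class, had 289 ± 88.7 and 249 ± 19.7. These 3 genes held 57.0% of the summed mean RPKM of all Gst members, and the differences between them were smaller than their spread over libraries. Gstp1, the pi class enzyme, came next with 145 ± 17.0 and 154 ± 46.7 RPKM, followed by Gstm5 at 109 ± 40.8 and 129 ± 41.4 and by Gstz1, an isomerase of tyrosine breakdown, at 76.2 ± 20.9 and 83.5 ± 16.4. Gstp1 overlapped Gstm5 in range, and Gstm5 overlapped Gstz1. At the other end stood the second omega gene Gsto2, with 0.885 ± 0.795 and 1.45 ± 0.396 RPKM, and Gsta2, with 0.672 ± 0.668 and 0.670 ± 0.416. Gsta1, Gstp2 and Gstt4 did not pass the filter. Gstp1 and Gstp2 share 62.3% and 72.6% of their 50-base stretches with another transcript, and Gsta1 and Gsta2 89.7% and 64.2%. The split of reads within each of these groups is therefore uncertain. Gstm1 shares 23.1% and Gstm2 9.36%, so part of their reads is open to the same limit. Gsta3, Gstt1, Gsto1 and Gsta4 share none.

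Among the glycosyltransferases outside the Ugt1a locus, Ugt2b34 and the ceramide galactosyltransferase Ugt8a led. Their levels were 78.7 ± 75.0 and 29.5 ± 3.39 RPKM in ST14high, and 27.8 ± 4.13 and 27.8 ± 3.75 RPKM in ST14low. With Ugt2b35, at 23.6 ± 9.94 and 18.7 ± 0.612 RPKM, they made up 82.7% of the summed mean RPKM outside Ugt1a. Ugt8a, which builds galactosylceramide and is best known from myelin, was the gene of that set with the highest level in ST14low replicates 1 and 4. The tested Ugt2b, Ugt2a and Ugt3a genes below them ranged from Ugt2b36, at 7.26 ± 2.70 and 7.69 ± 1.38 RPKM, to Ugt3a1, at 0.198 ± 0.209 and 0.460 ± 0.180.

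The sulfotransferases were dominated by Sult1a1, a phenol sulfotransferase, with 153 ± 41.8 RPKM in ST14high and 101 ± 22.0 in ST14low, which was 69.2% of the summed mean RPKM of the family. Sult1c2 followed with 58.8 ± 77.7 and 8.11 ± 1.97 RPKM. Sult2b1, which makes cholesterol sulfate, had 14.0 ± 4.65 and 14.2 ± 4.96, so its mean was below that of Sult1c2 in ST14high and above it in ST14low. Sult4a1, best known from brain, had 4.11 ± 2.19 and 4.71 ± 1.97 RPKM. Sult5a1, Sult1d1 and Sult1b1 had group means of 2.25 RPKM or less.

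No member passed the test at an adjusted p of 0.05. Sult1c2 and Ugt2b34 were the members higher in ST14high with no overlap, a count near the share over all genes. In edgeR's quasi-likelihood test 0 of 42 members and 0 of 13749 genes (0% called) passed, and the smallest adjusted p among members was 0.284, for Sult1c2. At an unadjusted p under 0.05, 13 members were higher in ST14high and 0 were lower, beside 6.89% of all genes higher and 2.68% lower. Of these 13, 8 were Ugt1a rows that count the same reads, and the others were Ugt2b34, Sult1c2, Sult1a1, Gstm2 and Gsto1. Without ST14high replicate 1 the count was 10 higher, 7 of them Ugt1a rows, and 0 lower, beside 6.07% of all genes higher and 3.65% lower. Ugt1a1, Sult1a1 and Gsto1 were no longer among them. DESeq2 called 0 of the members, with no adjusted p for Ugt2b34, Sult1c2 and Gsto1, while calling 1.72% of all genes. Limma's voom with quality weights called 0 members. The ST14high values lay above all ST14low values in 2 of 42 members, Ugt2b34 and Sult1c2, and below them in 0. All genes gave 4.09% higher and 2.33% lower, so the members higher without overlap were about as frequent as among all genes.

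The median log2 fold change of ST14high over ST14low was -0.07 in the 18 tested Gst genes, with 7 above 0 and 11 below, and 0.48 in the 7 Sult genes, with 5 above and 2 below. In the 17 Ugt genes it was 1.59, with 12 above and 5 below, but 8 of these rows share reads and the 9 genes outside the Ugt1a locus had a median of -0.07. Without ST14high replicate 1 the medians were -0.03 for Gst, 0.16 for Sult and 0.56 for Ugt. Over all genes tested the median was 0.00. The SD between replicates of the family median, in log2 CPM, was 0.33 for Gst, 1.42 for Ugt and 0.77 for Sult, and the difference between families was not tested.

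**Figure D2:**
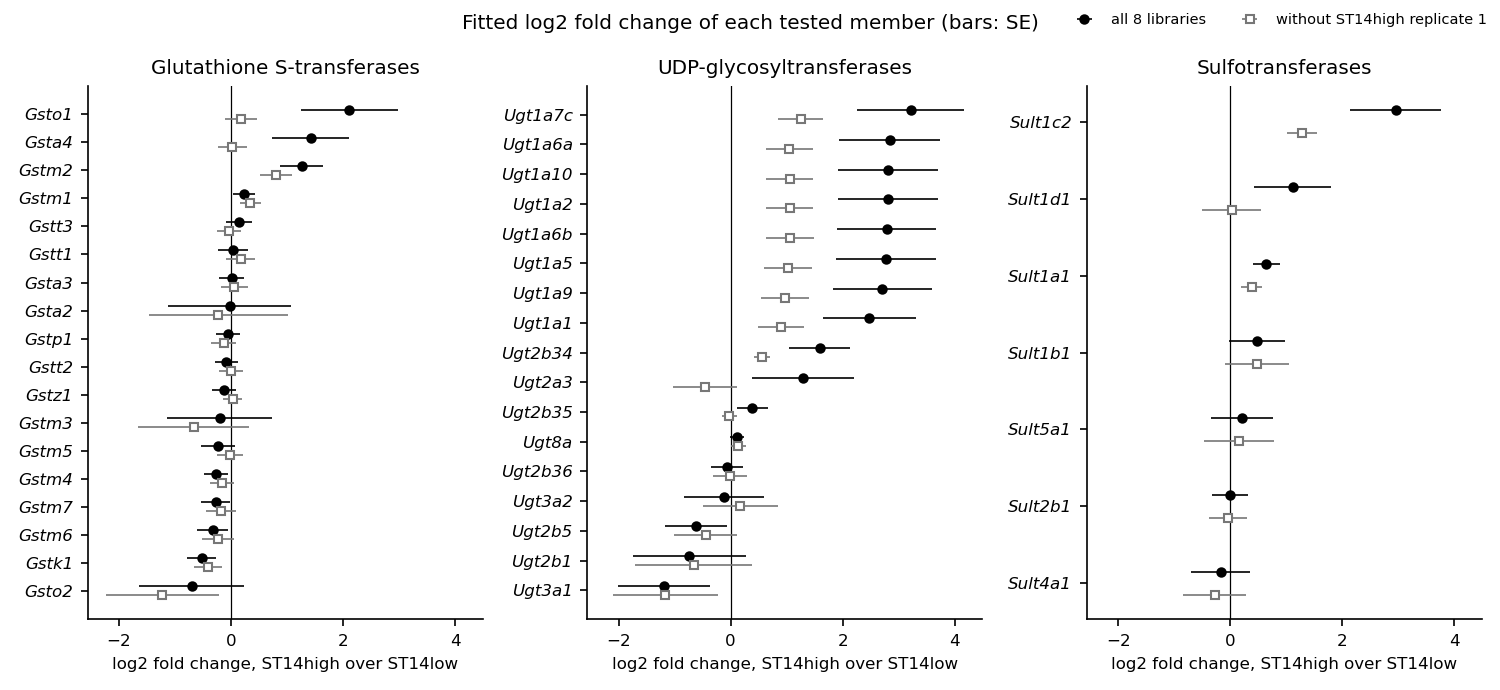
Fitted log2 fold change (ST14high over ST14low) of each tested member, with bars of 1 SE, for all 8 libraries (filled circles) and without ST14high replicate 1 (open squares). Without that library the Ugt1a rows lie at 0.90 to 1.25, Sult1c2 at 1.27, Gstm2 at 0.80 and Ugt2b34 at 0.56, all nearer to 0 than with it. Gsto1 (0.18), Gsta4 (0.02) and Sult1d1 (0.03) come close to 0, and Ugt2a3 passes it, to -0.46.

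Ugt2b34 encodes a glucuronosyltransferase of the subfamily known for steroid and bile acid substrates (mm9 chr5:87318794-87335962). Its CPM in ST14high replicates 1 to 4 were 592, 116, 122 and 106, and in ST14low replicates 1 to 4 they were 66.7, 73.6, 92.7 and 78.2. All 4 ST14high libraries were above all 4 ST14low libraries, and replicate 1 was 6.38 times the median of the other 7. The log2 fold change was 1.59 (SE 0.54, adjusted p = 0.398), and an exact two-sided permutation test gave p = 0.0286, the smallest that 4 against 4 allows, with an adjusted p of 0.445 over all genes. Any gene without overlap takes this permutation p, as 883 genes did, so it only restates the lack of overlap. Without ST14high replicate 1 the log2 fold change was 0.56 (SE 0.14), with an adjusted p of 0.238 in edgeR and 0.0376 in DESeq2. Only 2.07% of its 50-base stretches occur in another transcript.

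Sult1c2, a cytosolic sulfotransferase (mm9 chr17:53968961-53985283), was the other member without overlap. Its CPM were 225, 23.8, 15.8 and 29.3 in ST14high and 12.9, 8.66, 8.18 and 8.04 in ST14low, in replicate order. Replicate 1 of ST14high was again far above the rest, and the nearest libraries of the 2 populations were ST14high replicate 3 and ST14low replicate 1. The log2 fold change was 2.95 (SE 0.81, 95% interval 1.14 to 4.76, edgeR adjusted p = 0.284). Without ST14high replicate 1 it was 1.27 (SE 0.27), with an adjusted p of 0.143 in edgeR and 0.00397 in DESeq2. It shares 0.723% of its 50-base stretches. Without ST14high replicate 1 these same 2 of 43 tested members did not overlap, where all genes gave 6.74% higher and 5.06% lower. The markers of mesothelium, fibroblasts and stellate cells lay in the same direction, with 19 of 20 above 0, a median log2 fold change of 2.54, and 1.38 without ST14high replicate 1. Of these 20 markers 10 were higher in ST14high without overlap and 0 lower, beside 4.09% and 2.33% of all genes. DESeq2 called 9 higher and 0 lower, beside 1.72% of all genes called, and edgeR called 0. Their summed CPM was 3192 to 6776 in ST14high and 2400 to 3177 in ST14low. Gas6 alone, with a log2 fold change of 0.23, gave 2332 to 3109 CPM of these sums in ST14high and 1854 to 2673 in ST14low. The mesothelial marker Msln was detected in every library, at 6.07 to 220.4 CPM. All 7 tested pancreatic acinar markers also lay above 0, with a median of 6.40, and 3.85 without ST14high replicate 1. The acinar sums overlapped, at 6.52 to 11691 CPM in ST14high and 6.79 to 131 in ST14low. The part of these cell types in the Ugt2b34 and Sult1c2 values was not tested.

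Gstm2, of the mu class, stood between the separated and the mixed members. Its CPM were 35.3, 10.5, 12.7 and 19.1 in ST14high and 8.23, 10.6, 6.33 and 6.97 in ST14low. The populations overlapped only by ST14high replicate 2 and ST14low replicate 2. The log2 fold change was 1.26 (SE 0.38, edgeR adjusted p = 0.331) and 0.80 (SE 0.28, adjusted p = 0.397) without ST14high replicate 1. DESeq2 with 1 library left out called Gstm2 without ST14high replicate 2 and without replicate 3, Sult1c2 without replicates 1 and 2, and Ugt2b34 without replicates 1 and 4, while it called 2.04%, 1.91%, 3.03% and 1.56% of all genes without ST14high replicates 1, 2, 3 and 4. Leaving out ST14low replicates 1 to 4 in turn gave 0 members each time, beside 1.16%, 1.28%, 2.41% and 1.18% of all genes. In several of these fits DESeq2 gave Sult1c2 or Ugt2b34 no adjusted p.

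**Figure D3:**
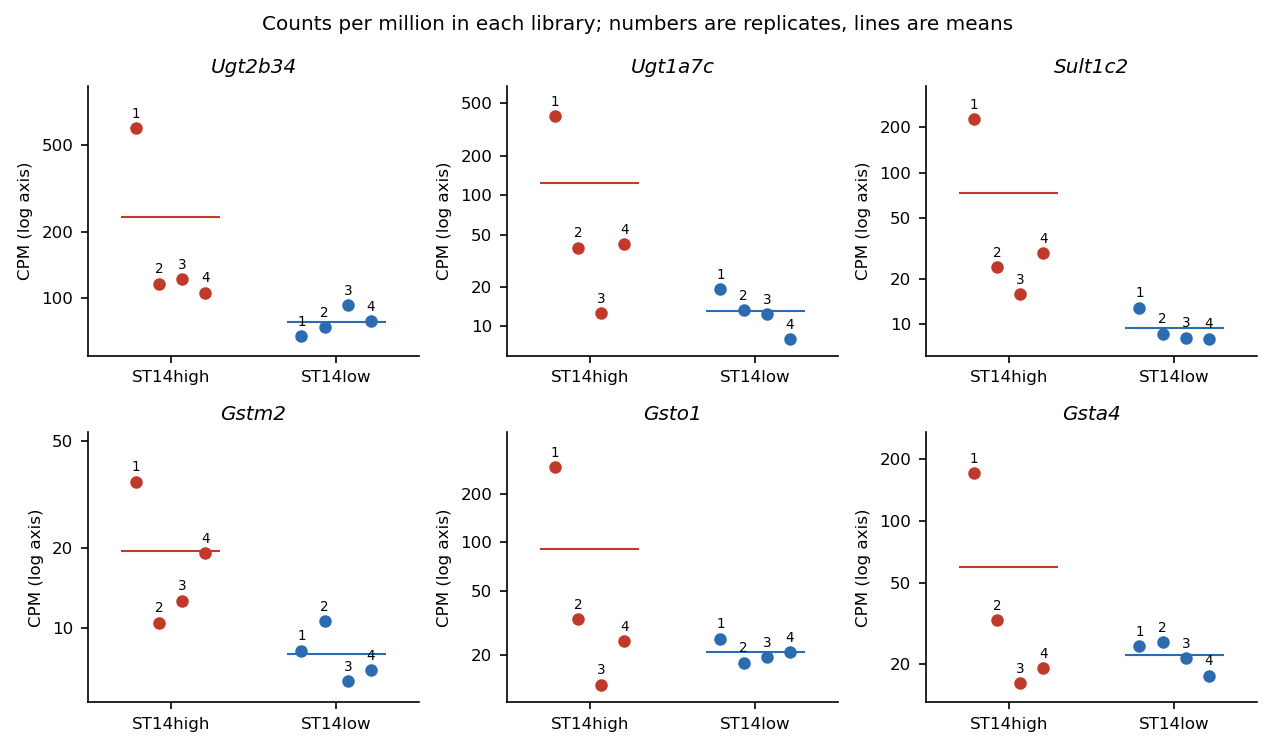
CPM on log axes for 6 members, with ST14high in red, ST14low in blue, replicate numbers beside the points and lines at the group means. ST14high replicate 1 is the highest library in all 6, and the populations are separate in Ugt2b34 and Sult1c2 only.

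In other members the higher ST14high mean came from 1 library. Gsto1, an omega class enzyme with thiol transferase and dehydroascorbate reductase activity, had 292 CPM in ST14high replicate 1, and 33.6, 13.2 and 24.4 in replicates 2 to 4. Its ST14low values were 25.4, 18.0, 19.4 and 20.9, inside the range of those 3. The log2 fold change of 2.11 (SE 0.86, edgeR adjusted p = 0.491) was 0.18 (SE 0.29) without replicate 1. Gsta4, which conjugates the lipid peroxidation product 4-hydroxynonenal, had 171, 32.8, 16.2 and 19.2 CPM in ST14high and 24.6, 25.6, 21.4 and 17.6 in ST14low. With that library the log2 fold change was 1.42 (SE 0.69), and without it 0.02 (SE 0.26). Ugt2a3 moved from 1.29 (SE 0.90) to -0.46 (SE 0.57), and Sult1d1, which sulfates catecholamines, from 1.11 (SE 0.69) to 0.03 (SE 0.52).

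The 6 Gst genes of highest RPKM and Ugt8a had overlapping values in the 2 populations and 95% intervals that include 0, which does not show that the levels were equal. Gsta3 had 313, 303, 415 and 376 CPM in ST14high and 303, 526, 280.4 and 289 in ST14low, a log2 fold change of 0.01 with a 95% interval of -0.48 to 0.50. The highest value and the lowest both belonged to ST14low. Gstt1 had a log2 fold change of 0.03 (-0.56 to 0.63), Gstm1 of 0.23 (-0.21 to 0.67) and Gstp1 of -0.06 (-0.53 to 0.42). Gstm5 gave -0.23 (-0.92 to 0.46) and Gstz1 -0.12 (-0.59 to 0.35), and both were lowest in ST14high replicate 1 among the ST14high libraries. Without that library Gstm5 was at -0.01 (SE 0.23) and Gstz1 at 0.03 (SE 0.17), while Gstm1 was at 0.35 (SE 0.18), Gstt1 at 0.17, Gsta3 at 0.06 and Gstp1 at -0.13. The interval was narrowest for Ugt8a, at 0.11 (-0.16 to 0.38), whose 8 values lay between 83.7 and 109 CPM. Sult1a1, the sulfotransferase of highest RPKM, had 261, 134, 165 and 136 CPM in ST14high against 91.3, 150.4, 104 and 100.1 in ST14low. ST14low replicate 2 reached into the ST14high range, and the log2 fold change was 0.64 (SE 0.24, edgeR adjusted p = 0.455), or 0.38 (SE 0.19) without ST14high replicate 1.

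Of the 42 tested members 18 had a log2 fold change below 0, 11 of them Gst genes, and 0 of these passed an unadjusted p under 0.05. Ugt3a1, which uses UDP-N-acetylglucosamine, had the lowest log2 fold change, -1.19 (95% interval -3.02 to 0.65), at 0.379, 0.0796, 0.165 and 0.979 CPM against 1.41, 0.717, 0.617 and 0.907. Ugt2b5 gave -0.62 (-1.86 to 0.63) and Ugt2b1 -0.74 (-2.98 to 1.51). Ugt2b1 was at 0.0236 CPM in ST14high replicate 3 and at 3.75 to 15.6 in the other 7 libraries. Gstk1, a kappa class enzyme of mitochondria and peroxisomes, was the tested Gst gene of lower mean in ST14high with the smallest unadjusted p, 0.0674, at -0.53 (-1.10 to 0.05). Hepatocyte markers lay in the same direction, with 30 of 30 below 0 and a median log2 fold change of -0.46, or -0.32 without ST14high replicate 1, and their summed CPM was 6596 to 16061 in ST14high and 11388 to 19530 in ST14low. Of 14 tested macrophage and dendritic cell markers 12 were below 0, with a median of -1.94, or -2.47 without ST14high replicate 1. The list summed to 243 to 379 CPM in ST14high and 376 to 1007 in ST14low. Endothelial markers had 15 of 16 below 0, with a median of -0.46, or -1.66 without ST14high replicate 1. Their sum was 1546 CPM in that library, 51.4 to 504 in the other ST14high libraries and 381 to 1523 in ST14low. Lymphocyte markers had 9 of 10 below 0, with a median of -1.65, or -2.30 without ST14high replicate 1. Their part in the lower members was not tested.

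The Ugt1a rows lay close together. Their log2 fold changes ran from 2.48 (SE 0.82) for Ugt1a1, the bilirubin-conjugating enzyme, to 3.22 (SE 0.96) for Ugt1a7c. Without ST14high replicate 1 they ran from 0.90 (SE 0.41) for Ugt1a1 to 1.25 (SE 0.41) for Ugt1a7c. These 8 values are not 8 results. In the deposited mm9 tables, 7 of the rows end at the same position, chr1:90116577, and Ugt1a10 had the fewest reads in each library. Its 7389 reads over all libraries set the most that the 7 rows can share, and what each other row held beyond them was computed, a calculation chosen after the values were seen.

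Most reads beyond the smallest row were in the Ugt1a7c row. It had 2907 of them, 62.6% of all such reads, against 970 (20.9%) for Ugt1a1, 590 (12.7%) for Ugt1a6a, 108 for Ugt1a9, 44 for Ugt1a5 and 28 for Ugt1a2. Ugt1a6b ends elsewhere and was not included. Of the 2907 reads, 2185 came from ST14high replicate 1. In CPM, the part of Ugt1a7c beyond the smallest row was 138, 8.19, 2.81 and 8.99 in ST14high, and 1.41, 0.820, 2.16 and 0.969 in ST14low. Every ST14high library was above every ST14low library. The nearest were ST14high replicate 3, with 119 such reads, and ST14low replicate 3, with 14, so the gap between them rests on few reads. No share over all genes exists for this measure. In whole rows 4.09% of all genes were higher without overlap. The same part of Ugt1a1 was 7.20, 4.77, 2.72 and 8.22 CPM in ST14high and 6.56, 4.20, 2.78 and 2.81 in ST14low, so that its populations overlapped, with means of 5.73 ± 2.47 and 4.09 ± 1.78. By this measure ST14high replicate 1 was not the highest library for Ugt1a1, which was replicate 4 at 8.22 CPM. In the whole Ugt1a1 row replicate 1 was the highest, at 267, 36.2, 12.5 and 41.3 CPM in ST14high against 24.3, 16.7, 13.0 and 9.82 in ST14low. Ugt1a6a, of the phenol-conjugating type, had 24.8 CPM beyond the smallest row in ST14high replicate 1 and 0.375 to 2.02 in the other libraries. These reads cannot be taken as its own, since 100% of its 50-base stretches also occur in another gene, and 80.7% of those of Ugt1a6b, which was not in the calculation. Ugt1a9 had 1.28 CPM or less in each.

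**Figure D4:**
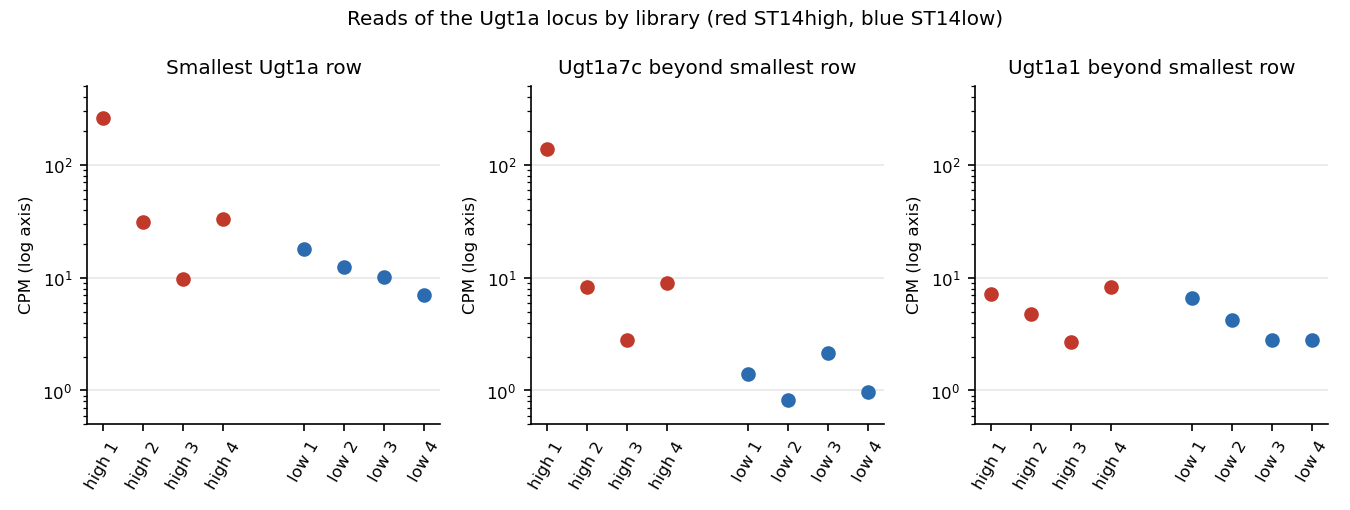
CPM on log axes per library for the smallest Ugt1a row (left) and for what the Ugt1a7c row (middle) and the Ugt1a1 row (right) held beyond it, ST14high in red and ST14low in blue. The 4 ST14high values of Ugt1a7c, 2.81 to 138, lie above its ST14low values of 0.820 to 2.16, while those of Ugt1a1 overlap.

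The promoters of Gsta3 and Gstm5 are shown because these are the abundant members whose start regions match the letters of the antioxidant response element. NRF2 is known to act on conjugation genes through that element, and whether these matches are bound was not tested. Each window runs from 250 bases before to 50 bases after the RefSeq start on GRCm38.p6, plus strand, at chr1:21240335-21240634 for Gsta3 and chr3:107895604-107895903 for Gstm5, with the letters of the element in capitals.
Gsta3: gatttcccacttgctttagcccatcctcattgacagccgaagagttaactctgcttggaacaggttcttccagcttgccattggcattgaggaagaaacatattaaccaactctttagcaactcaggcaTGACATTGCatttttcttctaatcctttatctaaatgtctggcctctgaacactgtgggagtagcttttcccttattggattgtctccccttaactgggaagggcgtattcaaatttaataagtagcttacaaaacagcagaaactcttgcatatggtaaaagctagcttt
Gstm5: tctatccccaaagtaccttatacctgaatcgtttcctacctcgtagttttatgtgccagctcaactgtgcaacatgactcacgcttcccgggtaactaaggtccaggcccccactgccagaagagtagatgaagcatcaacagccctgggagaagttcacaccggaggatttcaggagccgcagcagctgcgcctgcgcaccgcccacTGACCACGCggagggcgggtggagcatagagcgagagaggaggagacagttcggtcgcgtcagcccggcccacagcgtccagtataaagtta
The element was searched as TGACNNNGC on both strands. A match occurred in 12.4% of 32851 promoters of the same length. It occurred in 3 of the 62 promoters found for 52 of the members, a smaller share, namely those of Gsta3, Gstm5 and Gstm7. The core GCGTG of the element bound by the aryl hydrocarbon receptor was in 12 of the 62 member promoters, those of 10 members, and in 32.4% of all promoters. The log2 fold changes were 0.01 (SE 0.22) for Gsta3, -0.23 (SE 0.31) for Gstm5 and -0.28 (SE 0.26) for Gstm7. A match is a description of letters, and neither a match nor its absence shows whether a protein binds.

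How often did 1 library hold a member's extreme? ST14high replicate 1 was the highest library in 19 of the 42 tested members (45.2%) and in 23.0% of all genes. It exceeded the median of the other 7 libraries more than 3-fold in 15 members (35.7%), 8 of them Ugt1a rows, and in 8.96% of all genes. In the Gst family ST14high replicate 1 was the highest library in 5 of 18 tested genes (27.8%) and exceeded that median more than 3-fold in 3, Gsto1, Gsta4 and Gstm2. In 11 of the 18 the highest library was ST14low replicate 2, which held the highest value of 23.0% of all genes. ST14high replicate 3 and ST14low replicate 4 were each the lowest library in 11 of the 42 tested members (26.2%), beside 13.6% and 5.12% of all genes. For ST14low replicate 4 these included 9 of 17 Ugt genes, again counting the 8 Ugt1a rows. For ST14high replicate 3 they were 5 Gst, 4 Ugt and 2 Sult genes.

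**Figure D5:**
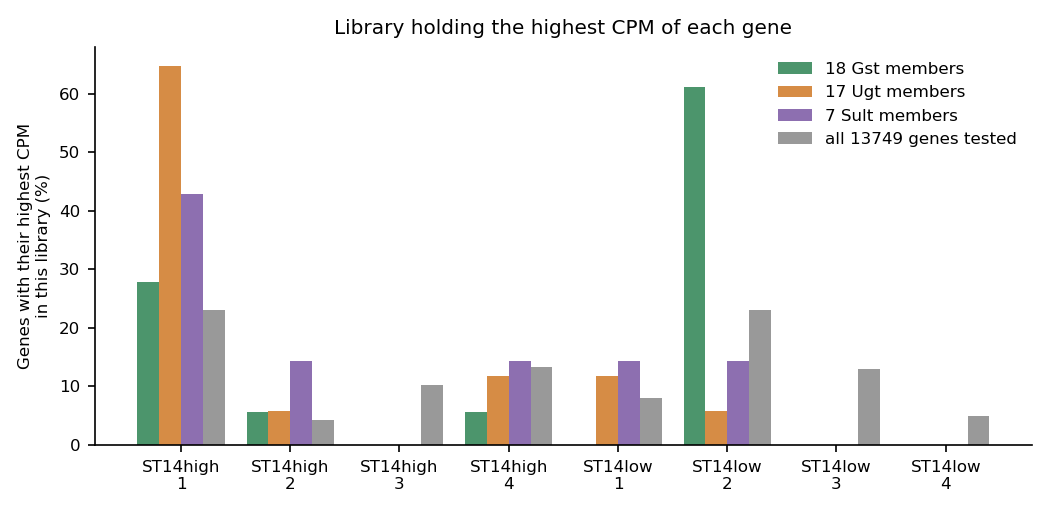
Share of genes (%) whose highest CPM was in each library, for the tested Gst, Ugt and Sult members and for all genes tested. ST14high replicate 1 leads for Ugt and Sult, and ST14low replicate 2 leads for Gst.

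Genes that supply, regulate or follow conjugation were measured beside the enzymes, and edgeR called 0 in each of 8 lists, as did DESeq2. At an unadjusted p under 0.05 edgeR had 2 of their 116 tested genes higher in ST14high (Gclc and Ptges) and 1 lower (Suox), beside the 6.89% and 2.68% of all genes. For glutathione supply 6 of 13 tested genes had a log2 fold change above 0, with a median of -0.03. Gclc, the catalytic subunit of the enzyme that starts glutathione synthesis, was the gene of that list without overlap, beside 4.09% of all genes higher in this way. It had 335, 95.4, 131 and 129 CPM in ST14high and 88.9, 76.3, 93.5 and 78.4 in ST14low. This gave a log2 fold change of 1.03 (SE 0.35, edgeR adjusted p = 0.396), which was 0.49 without ST14high replicate 1. For UDP-glucuronate supply the median was 0.09 over 9 genes, and for sulfate uptake and PAPS it was -0.18 over 10, with 8 below 0. Papss1, which makes PAPS, gave -0.22 (SE 0.13). The other lists had medians of 0.03 (28 other detoxification genes), -0.11 (11 deconjugating enzymes), -0.03 (11 efflux carriers), -0.02 (19 regulators) and 0.02 (19 targets of the antioxidant regulator NRF2 outside these families). Mgst1, a membrane-bound glutathione transferase outside the symbol rule, had a log2 fold change of -0.16 (SE 0.20), and Abcc3, which exports glucuronides, one of -0.26 (SE 0.14). Nfe2l2, the gene for NRF2, gave 0.23 (SE 0.13).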

How the data were processed

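RNA-seq of 4 ST14high and 4 ST14low libraries was analysed, grouped by the labels. The mouse build was mm9, with Bowtie 1.0.0 and CASAVA 1.8.2 among the tools, per the submitters' processing notes. No source used here gives the counting program, strand setting or read length. The authors, per the file headers, deposited a raw count and an RPKM value for each transcript. RPKM, which the authors scaled by length and depth, was used only for levels between genes. The main test of the counts was edgeR 4.0.16 (R 4.3.3, TMM, filterByExpr, quasi-likelihood, population as the only term), adjusted by Benjamini-Hochberg over all 13749 tested genes at 0.05. The common coefficient of variation was 38.4%. DESeq2 1.42.0, limma 3.58.1 voom and an exact permutation test over 70 arrangements on log2(CPM + 0.5) were the other tests. CPM used TMM-scaled library sizes, and values are mean ± SD unless an SE is named. Fits were tested on simulated data. Stretches of 50 bases shared between transcripts came from GENCODE M21, and promoters from RefSeq. No coordinates were converted between builds. Plots were drawn with matplotlib 3.10.9 in Python 3.11.15, from tables made with numpy 2.4.6 and pandas 2.3.3.

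The members, the naming rule and all 15 gene lists were chosen with earlier results of these data known. The rule named members past a threshold in edgeR or DESeq2, those without overlap, the 8 Gst, 4 Ugt and 4 Sult genes of highest RPKM, those beyond 1 on the log2 fold scale, and a short list of well-known members. Gstm3, Gstk1, Gsto2, Ugt2b36, Ugt2b1 and Sult1b1 were named after their values were seen. From the lists, genes past a threshold and the 3 of highest CPM could be named. Some genes of the lists are not reported here and were left out of them.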

Additional observations from a re-analysis of the deposited data

Results flagged for a closer look

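Within each population of 4 libraries, the highest or lowest library of a member stood far from the other 3 in 18 of 60 groups checked, where chance gives about 1 in 20. The 60 groups are 30 tested members in 2 populations, some of them named for a large fold change, and the Ugt1a rows share reads, so this rate cannot be read against chance. ST14high replicate 1 was that library in 14 of them. Its CPM were 292 for Gsto1, 171 for Gsta4, 225 for Sult1c2, 592 for Ugt2b34, 132 for Ugt2b35 and 45.3 for Ugt2a3. For the Ugt1a rows they were 258 for Ugt1a6b, 398 for Ugt1a7c, 267 for Ugt1a1, 285 for Ugt1a6a, 260.2 for Ugt1a9, 261 for Ugt1a5, 261 for Ugt1a2 and 260.2 for Ugt1a10. ST14low replicate 2 stood above the other ST14low libraries at 526 CPM for Gsta3, 111 for Gstp1 and 19.3 for Sult2b1. ST14low replicate 1 did so at 12.9 CPM for Sult1c2.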

How the results depend on the processing

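Under other normalization factors, a filter of at least 5 CPM in at least 4 libraries or no filter, voom, DESeq2, the longest transcript per gene, and each library left out in edgeR, 0 members passed. Over all genes DESeq2 called 233 where edgeR called 0. DESeq2 with 1 library left out, added after the data were seen, called 0 to 2 members and 161 to 421 genes. Members without overlap were 2 to 10 when 1 library was left out, with 10 (8 of them Ugt1a rows) without ST14high replicate 3 and 4 without ST14low replicate 2. All genes without overlap were 883 of 13749 with 8 libraries and 1147 to 1777 with 7, where fewer libraries have to be separate. The share over all genes is not given here for the fits with 10 and 4 members, so these counts cannot be read as above it. The labels do not say whether equal replicate numbers mark the same animals. Deviations from the group means correlated at 0.052, 0.052, -0.12 and 0.0054 for equal numbers and at -0.20 to 0.24 for unequal ones. These values cannot decide whether the samples were paired. With the replicate number as a replicate block, 0 members and 2 genes passed.

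The sign of some fold changes near 0 depended on the setting, and the cause was not tested. Gsta3 was at -0.0048 with median-of-ratios factors, -0.026 with upper-quartile factors and -0.0048 in DESeq2, and Gstt1 was at -0.00021 with upper-quartile factors. Gsta2 was at 0.00070 without a filter and 0.015 in DESeq2, and voom gave 0.12 for Gstp1, 0.026 for Gstz1 and 0.022 for Sult2b1. With 1 library left out, in edgeR or DESeq2, log2 fold changes ran from -0.10 to 0.27 for Gsta3, -0.14 to 0.30 for Gstt1, -0.17 to 0.19 for Gstp1, -0.39 to 0.016 for Gstm5, -0.23 to 0.029 for Gstz1 and -0.76 to 0.42 for Gsta2. They ran from -0.27 to 0.29 for Sult2b1, -0.42 to 0.16 for Sult4a1, -0.0091 to 0.47 for Sult5a1, -0.038 to 0.52 for Ugt2b35 and -0.48 to 1.67 for Ugt2a3. The family medians ran from -0.18 to 0.13 for Gst, 0.56 to 1.83 for Ugt and 0.09 to 0.65 for Sult in edgeR. Of the other settings voom gave 0.83 for the Ugt median, 1.54 for Sult1c2, 1.82 for Ugt1a7c, 0.83 for Ugt2b34, 0.54 for Gsto1 and -2.43 for Ugt3a1, the replicate block gave 2.08 for Sult1c2 and 0.95 for Gsto1, and the 5 CPM filter gave 2.48 for the Ugt median. Depth limits the members near 1 CPM, most of all in ST14low replicate 3, the shallowest library.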
